A study of Mus musculus with 6 samples.

Results

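Genes that mark or drive the early stages of B cell development in the bone marrow were followed in RNA sequencing data from mice that model multiple myeloma, a plasma cell cancer. The list held 9 genes, chosen by name from the gene table: Rag1, Rag2, Dntt, Vpreb1, Vpreb3, Igll1, Lef1, Ebf1 and Sox4. Of these, 6 had a row among the 17173 genes of that table, and all 6 passed the minimum mean of 10 normalized counts among the 14605 genes tested. Rag2, Vpreb1 and Igll1 had no row in the table used here and were not analysed here. The data comprised 6 total RNA libraries, 3 of mice whose genotype is labelled Che-1 silencing and 3 of mice labelled control. All carry the tissue label bone marrow and the source label VkCHE mice, and the titles of the first group read vkche. The labels give neither the strain, age or sex of the mice, nor the promoter or vector behind the genotype, nor whether the replicates were separate animals. P-values therefore rest on library-to-library spread, pooled across genes to the extent given below, and part of that spread may be technical.

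B cells arise in the marrow from lymphoid progenitors that pass through pro-B and pre-B stages before they leave as immature B cells. The recombinase encoded by Rag1 and Rag2 cuts immunoglobulin gene segments, and Dntt encodes terminal deoxynucleotidyl transferase, which adds untemplated nucleotides where the segments are joined. Vpreb1 and Igll1 encode the surrogate light chain, which pairs with the new heavy chain in the pre-B receptor, and Vpreb3 encodes a related protein of the endoplasmic reticulum that binds newly made immunoglobulin chains. Ebf1, Lef1 and Sox4 encode transcription factors needed for pro-B cells. Ebf1 stays on in mature B cells, Lef1 is also used by T cells, and Sox4 is used by many other progenitors.

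The deposited gene table gives a mean per group, and the reads of each library were recovered from those means as whole numbers for 99.4% of genes, all 6 members included. The labels and the tissue were checked first. Aatf, the gene that encodes Che-1, stood at 1986, 3808 and 1223 under the silencing label, against 896, 396 and 421 in the control libraries, in counts normalized to spike-in RNA. The targeted gene was thus not lower there, and each direction below belongs to the label, since no loss of Aatf was measured. Ddx3y, a Y-linked gene, had 0 reads in every Che-1 silencing library and between 2168 and 4151 reads in the control libraries, so genotype and sex cannot be told apart in any comparison here. Gene reads, summed over the recovered genes only, numbered between 14382072 and 24935886 in the Che-1 silencing libraries. In the control libraries they numbered between 11325885 and 17816530. Among pairs of replicates, counts of control replicates 2 and 3 differed by 2.09 times the variance of sampling noise, against 16.8 to 159.8 times for the other pairs, so those controls were close but counted as separate libraries. Granule and other neutrophil genes (12 markers) took 0.00567%, 0.0196% and 0.0992% of gene reads in Che-1 silencing replicates 1, 2 and 3, against 0.0399%, 0.0998% and 0.0979% in control replicates 1, 2 and 3. Of 14 markers of mature B cells 9 were counted, since the others had no recovered counts. Those counted took more reads than the neutrophil markers in every library, from 0.243% to 0.401% in the Che-1 silencing libraries and from 0.272% to 0.288% in the control libraries.

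Stretches of promoter, the 250 bases before the transcription start, are shown for 3 measured members that have a single start in the table and hold a motif of B lineage factors on either strand. They are RefSeq sequences of build GRCm38.p6, not the mm9 build named by the submitters, written 5′ to 3′ along the gene's strand, with the motif matches in capitals. Rag1 (chr2:101649533-101649782, minus strand) holds the E-box CAGGTG, bound by the E2A proteins, and the Ikaros core TGGGAA. Sox4 (chr13:28953700-28953949, minus strand) holds TGGGAA. Vpreb3 (chr10:75948050-75948299, plus strand) holds ATTTGCAT, the reverse complement of the octamer ATGCAAAT that is typical of immunoglobulin promoters and bound by Oct factors.
Rag1: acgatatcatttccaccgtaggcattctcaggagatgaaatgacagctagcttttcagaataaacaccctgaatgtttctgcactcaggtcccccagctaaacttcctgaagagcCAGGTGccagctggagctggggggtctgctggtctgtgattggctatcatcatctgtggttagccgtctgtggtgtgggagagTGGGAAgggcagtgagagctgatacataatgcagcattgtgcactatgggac
Sox4: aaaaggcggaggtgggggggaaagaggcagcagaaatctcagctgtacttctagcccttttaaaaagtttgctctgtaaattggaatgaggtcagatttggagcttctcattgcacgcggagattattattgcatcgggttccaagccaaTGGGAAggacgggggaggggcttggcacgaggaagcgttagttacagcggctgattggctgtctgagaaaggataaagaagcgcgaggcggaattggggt
Vpreb3: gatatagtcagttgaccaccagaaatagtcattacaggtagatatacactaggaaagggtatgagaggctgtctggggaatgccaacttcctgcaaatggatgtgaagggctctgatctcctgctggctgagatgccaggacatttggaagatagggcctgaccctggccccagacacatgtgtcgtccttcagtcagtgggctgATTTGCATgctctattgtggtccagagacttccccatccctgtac

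In Vpreb3 the octamer begins 45 bases before the start site, and in Rag1 the E-box and the Ikaros core begin 135 and 52 bases before it. The Ikaros core of Sox4 begins 100 bases before its start. Among 32851 promoter windows of the same length, 1.6% hold the octamer, 17.2% the E-box and 21.6% the Ikaros core. The EBF core CCCNNGGG (11.8% of windows) and the LEF/TCF motif CTTTGAT (3.21%) were searched as well and matched none of these 3 windows. Of the other members, Ebf1 holds the Ikaros core before 1 of its starts, Vpreb1 holds the E-box, and Igll1 holds the E-box and the EBF core, while Rag2, Dntt and Lef1 hold none of the 5 motifs. The motifs do not overlap each other in these windows, the octamer was added after the Vpreb3 sequence had been read, and a match is a description and not a binding site.

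Levels were compared on 3 scales. Normalized counts are reads divided by the size factor that the ERCC spike-in RNAs give each library (the spike-in scale). The relative scale sets each library's median gene equal, and the B lineage scale sets equal the mean log2 level of 5 genes that B lineage cells carry from precursor to mature stages (Cd79a, Cd79b, Pax5 and Blk among them). Differences are Che-1 silencing minus control on log2(normalized count + 1), which understates the change of low genes, and were tested with limma across all 14605 genes, with Benjamini-Hochberg adjusted p-values and a threshold of 0.05. The median gene was 1.54 log2 units higher in the Che-1 silencing libraries on the spike-in scale. Spike-in reads numbered 445186, 228087 and 414769 in Che-1 silencing replicates 1, 2 and 3, against 471796, 1149392 and 1105881 in control replicates 1, 2 and 3. A different RNA content and a different ratio of spike-in to sample RNA at input cannot be told apart by these counts. A rise on the spike-in scale is meant in this sense throughout. Relative to the median gene, the mean of the 5 B lineage genes was 0.04 log2 units higher in the Che-1 silencing libraries (two-sided exact permutation p = 0.9, n = 3 each, where 0.10 is the smallest p possible), so the relative and the B lineage scales gave almost the same differences. In bulk RNA fewer cells of a type and less RNA per cell cannot be told apart.

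On the spike-in scale 2 of the 6 measured members rose in the Che-1 silencing libraries, Vpreb3 and Ebf1, and 0 fell. Among all genes tested, 66.7% rose and 0.746% fell on that scale, so a share of 2 in 6 lies below the background. The median difference of the 6 members was 0.57 log2 units, against 1.54 over all genes. On the relative scale 0 members passed in either direction, where 0.0274% of all genes passed, and on the B lineage scale 0 passed, where 0.0342% did (0.00685% higher). The 4 genes that passed on the relative scale were Ddx3y, Eif2s3y, Kdm5d and Uty, all Y-linked and all lower. The same 4 genes were those called lower on the B lineage scale. No other gene passed on the relative scale, so that background holds only genes that follow sex. At an unadjusted p under 0.05, 3 members were lower on the relative scale (Rag1, Lef1 and Sox4) beside 35.1% of all genes in either direction. On that scale edgeR called 0 members, beside 4 of 14605 genes, and DESeq2 called 4, beside 3967 of 14576 genes. On the B lineage scale 4 members had an unadjusted p under 0.05, beside 29.6% of all genes. There edgeR called 0 members, beside 5 of 14605 genes, and DESeq2 called 3, beside 2957 of 14561 genes. The median difference of the members was -0.96 log2 units on the relative scale, against 0.01 over all genes.

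**Figure D1:**
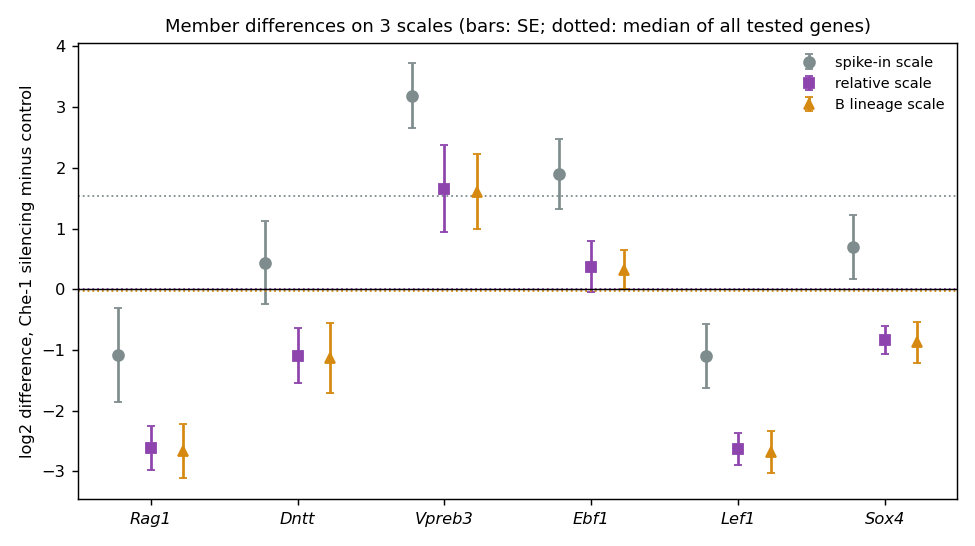
Log2 difference between Che-1 silencing and control (y axis) for the 6 measured members on the spike-in, relative and B lineage scales; bars are limma SEs and dotted lines the median of all 14605 genes tested. Vpreb3 and Ebf1 lie above the median gene on each scale, and Rag1, Dntt, Lef1 and Sox4 lie below it on each.

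The recombination genes Rag1 and Dntt were close to the lower end of measurement in every library. Rag1 was represented by 6, 5 and 5 reads in Che-1 silencing replicates 1, 2 and 3, against 20, 35 and 36 reads in control replicates 1, 2 and 3. Those of replicate 1, for example, have exact 95% Poisson intervals of 2.2 to 13.1 reads in the Che-1 silencing library and 12.2 to 30.9 in the control library, which cover counting error only. All 3 Che-1 silencing libraries lay below all 3 control libraries.

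As a share of gene reads, Rag1 had 0.241, 0.235 and 0.348 RPM (reads per 1000000 gene reads) in the Che-1 silencing libraries and 1.77, 2.2 and 2.02 in the control libraries. The mean was 0.274 ± 0.0635 RPM in the Che-1 silencing libraries and 1.99 ± 0.216 RPM in the control libraries (SD, n = 3 each). On the spike-in scale the difference of Rag1 was -1.08 log2 units (SE 0.77, limma adjusted p = 0.2). On the relative scale it was -2.61 (SE 0.36), a value in the lowest 1.2% of all genes that missed the threshold (limma adjusted p = 0.0724, unadjusted p = 0.00025). It passed under 3 of 14 alternatives on that scale, with DESeq2 (adjusted p = 3.54e-05), without Che-1 silencing replicate 3 (limma adjusted p = 0.00161) and with each gene's own spread (limma adjusted p = 0.0465), and the highest adjusted p was 0.264. On the B lineage scale the difference was -2.66 (SE 0.45, limma adjusted p = 0.0845).

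Dntt gave 16, 19 and 18 reads in the Che-1 silencing libraries, against 13, 47 and 50 reads in the control libraries. In RPM these are 0.642, 0.893 and 1.25 in the Che-1 silencing libraries and 1.15, 2.95 and 2.81 in the control libraries. The groups overlapped, because control replicate 1 lay below Che-1 silencing replicate 3. The difference of Dntt was 0.44 log2 units on the spike-in scale (SE 0.68, limma adjusted p = 0.557) and -1.09 on the relative scale (SE 0.46, limma adjusted p = 0.146). Neither passed, and the direction turned between the scales.

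**Figure D2:**
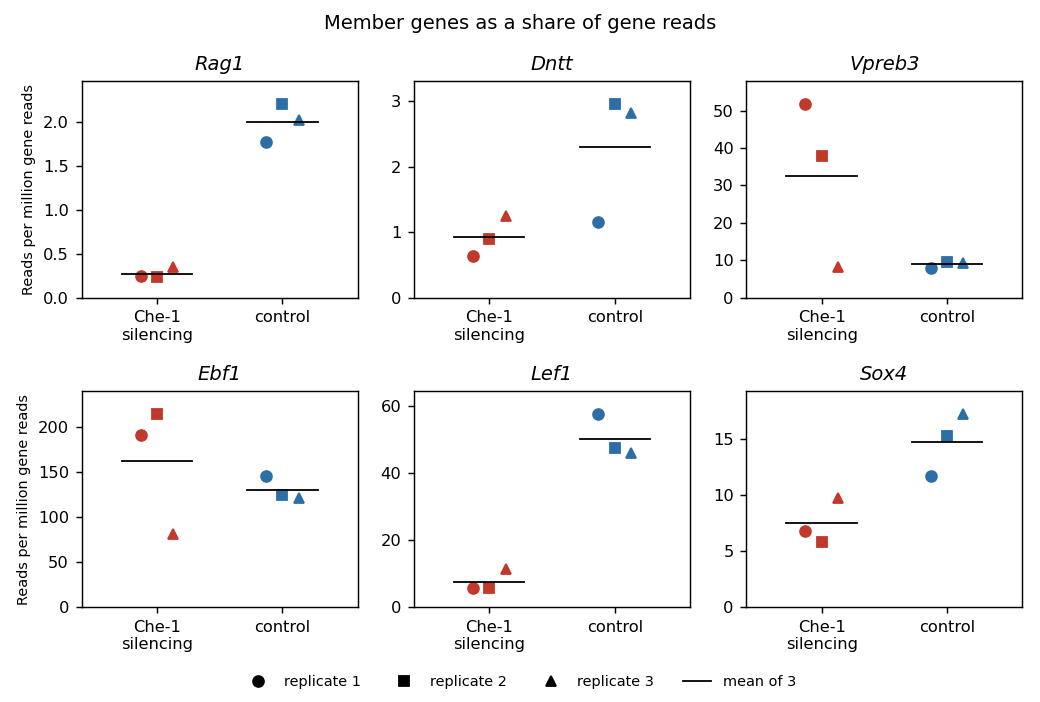
RPM (y axis, from 0) of each measured member in the 3 Che-1 silencing and the 3 control libraries; points are libraries and lines are means. For Rag1, Lef1 and Sox4 the groups do not overlap, while Vpreb3 and Ebf1 are spread wide within the Che-1 silencing group.

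Vpreb3 rose on the spike-in scale, with a wide spread among the Che-1 silencing libraries. Replicates 1, 2 and 3 of Che-1 silencing held 1590.3, 1933 and 153 normalized counts of it, against 106, 71.4 and 79.3 in control replicates 1, 2 and 3. The Che-1 silencing mean was 1225 ± 944 and the control mean 85.7 ± 18.4 (SD, n = 3 each), a ratio of 14.3. All 3 Che-1 silencing libraries lay above all 3 control libraries on that scale, and the difference was 3.19 log2 units (SE 0.53, limma adjusted p = 1.39e-07).

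Vpreb3 was far higher in Che-1 silencing replicates 1 and 2 than in replicate 3. As a share of gene reads Vpreb3 stood at 51.7, 37.8 and 8.27 RPM in Che-1 silencing replicates 1, 2 and 3, against 8.03, 9.54 and 9.37 in the control libraries, so replicate 3 lay within the control range. The difference on the relative scale was 1.66 log2 units (SE 0.71), in the highest part of all genes at percentile 97.8, and did not pass (limma adjusted p = 0.149). Without Che-1 silencing replicate 3 it was 2.53 (limma adjusted p = 0.00063), and the alternatives spanned adjusted p-values from 0.00063 to 0.384. The spike-in call ended when limma used each gene's own spread (adjusted p = 0.0894, in a range from 1.46e-16 to 0.0894).

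Ebf1, the factor that sets and keeps B cell identity, also rose on the spike-in scale and by less. Replicates 1, 2 and 3 of Che-1 silencing held 5865, 10986 and 1498 normalized counts of it, against 1939, 936 and 1023 in control replicates 1, 2 and 3. Che-1 silencing replicate 3 lay below control replicate 1, so the groups overlapped. The difference was 1.9 log2 units (SE 0.58, limma adjusted p = 0.00369), and 72% of all genes had a difference as large or smaller. Relative to the median gene it was 0.37 (SE 0.42, limma adjusted p = 0.532) and relative to the B lineage genes 0.32 (SE 0.32, limma adjusted p = 0.5). Without Che-1 silencing replicate 3 these were 0.87 (limma adjusted p = 0.00573) and 0.7 (limma adjusted p = 0.0097), and without replicate 2 both were 0.07 (limma adjusted p = 0.926 and 0.918). These are the ends of the adjusted p range over the alternatives on each scale. The spike-in call of Ebf1 ended without Che-1 silencing replicate 1 or 2 (limma adjusted p = 0.084 and 0.0998) and without control replicate 2 or 3 (0.0683 and 0.0672). It also ended with control replicates 2 and 3 summed into 1 library (0.0669), and over all alternatives the adjusted p ran from 1.75e-06 to 0.139.

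Markers of germinal centre B cells, the mature B cells that mutate their antibody genes after antigen contact, were set beside Vpreb3 and Ebf1. All 10 tested markers rose on the spike-in scale, beside the 66.7% of all genes, with a median difference of 5.44 log2 units. With each gene's own spread in limma 0 of all genes passed as higher on that scale, which ends these calls and every rise counted in the lists below. They took 0.405%, 0.359% and 0.0421% of gene reads in Che-1 silencing replicates 1, 2 and 3, against 0.0156%, 0.0249% and 0.0239% in control replicates 1, 2 and 3. As for Vpreb3, replicates 1 and 2 of Che-1 silencing lay far above the other libraries. Ebf1 followed the markers only in part. It stood at 191, 215 and 81.1 RPM in Che-1 silencing replicates 1, 2 and 3, against 146, 125 and 121 in the control libraries. In Che-1 silencing replicate 3 Ebf1 was thus below all control libraries in RPM, whereas the share of the markers was above all of them. The part of these cells in the values of Vpreb3 and Ebf1 was not tested. None of the 10 tested markers was at 0 in any library.

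**Figure D3:**
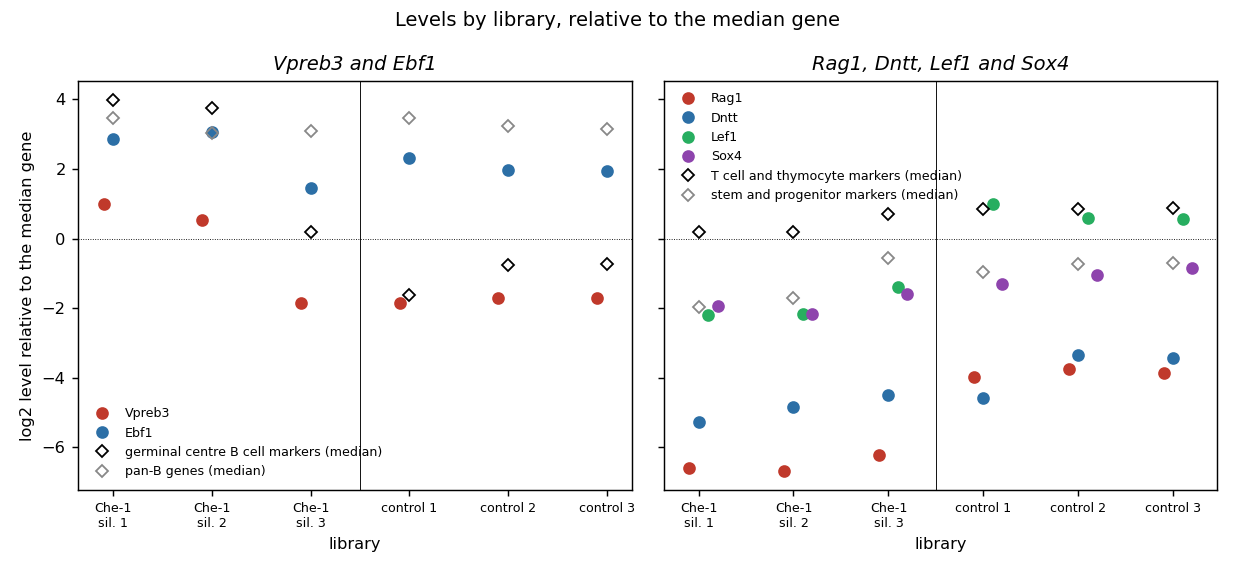
Log2 level above or below each library's median gene (y axis) in the 6 libraries (x axis), for the members (filled points) and for the median of marker lists (open diamonds). Vpreb3 and the germinal centre markers are high in Che-1 silencing replicates 1 and 2, whereas Rag1 and Lef1 are lower in all 3 Che-1 silencing libraries than in the control libraries.

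Lef1 stood apart in the other direction. It had 174, 293 and 208 normalized counts in the Che-1 silencing libraries, against 764, 355 and 388 in the control libraries, and the groups did not overlap. The Che-1 silencing mean was 225 ± 61.2 and the control mean 503 ± 227 (SD, n = 3 each). The difference on the spike-in scale was -1.1 log2 units (SE 0.53, limma adjusted p = 0.0569), whereas the median gene was 1.54 higher. Below all control libraries on that scale lay 2 of the 6 members, Rag1 and Lef1, beside 0.438% of all genes, and above all of them lay Vpreb3 and Sox4, beside 68% of all genes.

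In RPM Lef1 stood at 5.65, 5.74 and 11.3 in the Che-1 silencing libraries and at 57.7, 47.4 and 45.9 in the control libraries. Its difference on the relative scale was -2.63 log2 units (SE 0.27, unadjusted p = 4.5e-05), in the lowest 1.1% of all genes, and missed the threshold (limma adjusted p = 0.0556). On the B lineage scale it was -2.68 (SE 0.35, limma adjusted p = 0.0845). Over 15 alternatives on the relative scale the difference ran from -2.9 to -2.49 and the adjusted p from 6.11e-14 to 0.264, and 3 of them passed. Without Che-1 silencing replicate 3 it was -2.9 (limma adjusted p = 0.000483). DESeq2 gave -2.62 (adjusted p = 6.11e-14), and limma with no minimum mean gave -2.56 (adjusted p = 0.0489). On the spike-in scale Lef1 passed under 6 of 16 alternatives, with adjusted p-values from 0.0293 to 0.257.

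T cells also carry Lef1, and their markers were set beside it. The 14 T cell and thymocyte markers took 0.0718%, 0.0679% and 0.0699% of gene reads in the Che-1 silencing libraries, against 0.0751%, 0.0866% and 0.0867% in the control libraries. Their median difference on the relative scale was -0.46 log2 units over 13 tested markers, and 0 passed (at an unadjusted p under 0.05, 1 was higher and 6 lower, beside 35.1% of all genes in either direction). Tcf7, the closest relative of Lef1, had 827, 1484 and 1004 normalized counts in the Che-1 silencing libraries and 1249, 726 and 769 in the control libraries. Its relative difference was -1.26 log2 units (SE 0.23, limma adjusted p = 0.0724), and those of the T cell genes Cd8a and Cd8b1 were -1.49 (SE 0.23) and -2.02 (SE 0.35), both with a limma adjusted p of 0.0724. Other T cell markers went the other way, and 4 of the 13 tested had a positive relative difference. These were Lck (0.96, SE 0.47), Zap70 (0.51, SE 0.17), Cd3g (0.43, SE 0.18) and Cd4 (0.06, SE 0.11). Ptcra, the pre-T receptor chain of thymocytes, was at 0 reads in Che-1 silencing replicate 1 and control replicate 2. The part of T cells in the value of Lef1 was not tested.

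Sox4 had 209.7, 298 and 179.8 normalized counts in the Che-1 silencing libraries, against 156, 114 and 146 in the control libraries. On the spike-in scale the groups did not overlap and the Che-1 silencing libraries were higher, by 0.7 log2 units (SE 0.53, limma adjusted p = 0.227). On the relative scale the groups did not overlap either, but the Che-1 silencing libraries were lower, at -0.83 (SE 0.23, limma adjusted p = 0.084), and on the B lineage scale the difference was -0.87 (SE 0.34, limma adjusted p = 0.156). The relative difference passed under 2 of 15 alternatives, with DESeq2 (adjusted p = 0.0097) and without Che-1 silencing replicate 3 (limma adjusted p = 0.0104), and the highest adjusted p was 0.268. In RPM Sox4 stood at 6.82, 5.83 and 9.73 in the Che-1 silencing libraries and at 11.7, 15.2 and 17.2 in the control libraries. On the relative scale 3 of the 6 members, Rag1, Lef1 and Sox4, lay below all control libraries, beside 19.7% of all genes, and 0 lay above, beside 20.5%. On the B lineage scale Rag1 and Lef1 lay below all control libraries, beside 11.6% of all genes, and 0 members lay above, beside 23.3%. Stem and progenitor markers, some of which mark cells that also carry Sox4, had a median relative difference of -1.25 log2 units over 11 tested genes, and 0 passed (at an unadjusted p under 0.05, 2 were higher and 7 lower, beside the same 35.1%). They took 0.0239%, 0.0245% and 0.0272% of gene reads in the Che-1 silencing libraries and 0.0267%, 0.0429% and 0.0417% in the control libraries. Their part in the value of Sox4 was not tested.

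**Figure D4:**
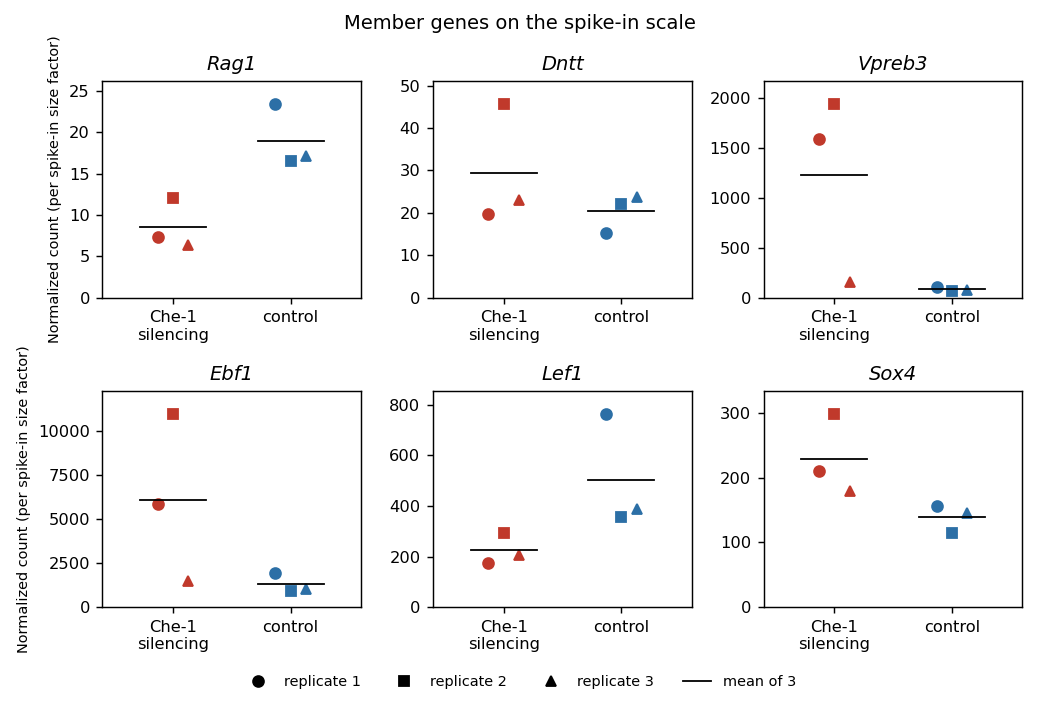
Normalized counts on the spike-in scale (y axis, from 0) of each measured member in the 3 Che-1 silencing and the 3 control libraries; points are libraries and lines are means. Rag1 and Lef1 lie lower in the Che-1 silencing libraries, and Vpreb3 is at 1590.3 and 1933 in replicates 1 and 2 of that group and at 153 in replicate 3.

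Levels of different genes were compared per kilobase of exon, with lengths from the GENCODE vM21 annotation, which is not that of the files. Rag1 was the lowest member, at 1.3 ± 0.451 normalized counts per kilobase in the Che-1 silencing libraries and 2.87 ± 0.582 in the control libraries (SD, n = 3 each). Dntt followed, at 12.9 ± 6.14 in the Che-1 silencing libraries and 8.88 ± 1.97 in the control libraries. Sox4 (47.8 ± 12.8 in Che-1 silencing and 28.9 ± 4.51 in control) and Lef1 (25.6 ± 6.97 in Che-1 silencing and 57.2 ± 25.8 in control) came next. Sox4 was above Lef1 in every Che-1 silencing library and Lef1 above Sox4 in every control library. Vpreb3 (1426 ± 1099 in Che-1 silencing and 99.8 ± 21.4 in control) and Ebf1 (627 ± 487 in Che-1 silencing and 133 ± 57.0 in control) were the highest, and their ranges overlapped within both groups. Vpreb3 was above Ebf1 in every Che-1 silencing library and Ebf1 above Vpreb3 in every control library. Cd79a, a signalling chain of the B cell receptor that is present from the pro-B stage on, had 5577 ± 2198 per kilobase in the Che-1 silencing libraries and 2021 ± 789.8 in the control libraries. Rag1 and Dntt thus stood far below it in both groups.

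**Figure D5:**
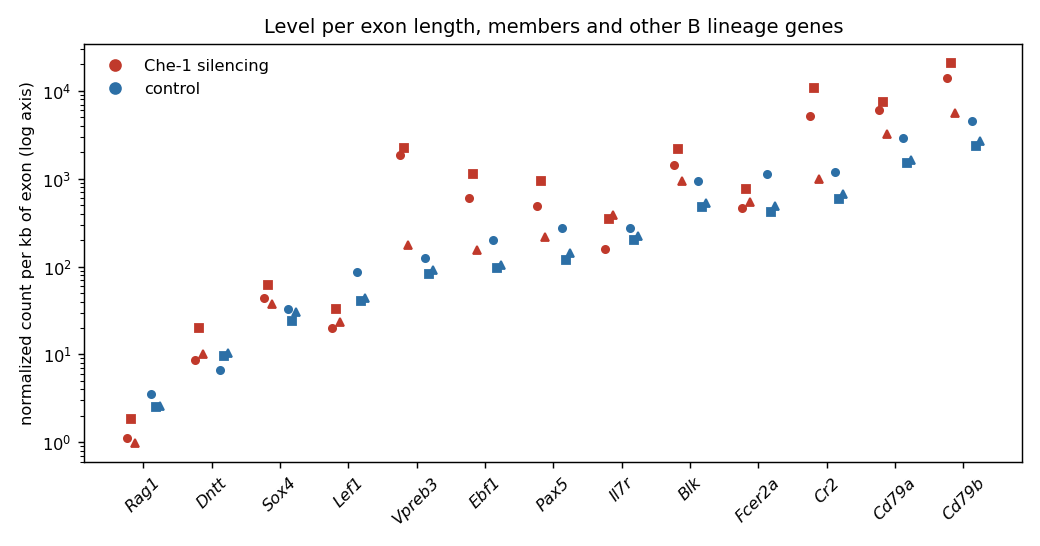
Normalized counts per kilobase of exon (log y axis) of the 6 measured members and of other B lineage genes, each point a library; circles, squares and triangles are replicates 1, 2 and 3. Rag1 and Dntt lie lowest in both groups, and Cd79a and Cd79b are among the highest.

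Other genes of the same pathway were read from lists of known function. All 12 genes of V(D)J joining and its cofactors rose on the spike-in scale, beside the 66.7% of all genes, with a median of 1.81 log2 units against 1.54 over all genes. Relative to the median gene 0 passed, and 3 had an unadjusted p under 0.05, beside 35.1% of all genes. Lig4, the ligase that seals the joined ends, rose by 3.06 log2 units on the spike-in scale (SE 0.54, limma adjusted p = 7.77e-07), with 1638, 2869 and 348 normalized counts in the Che-1 silencing libraries and 164, 119.9 and 141 in the control libraries. Lig4 and most of these factors act in DNA repair in all cells, unlike Rag1 and Dntt. Of 10 tested genes of the pre-B receptor and its signalling 9 were called higher and 0 lower on the spike-in scale, beside the same 66.7%, with a median of 1.75. Pik3ap1, an adaptor that links the B cell receptor to lipid kinase signalling, rose by 2.77 (SE 0.59, limma adjusted p = 5.08e-05).

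Of 22 tested early B lineage regulators 17 were called higher and 0 lower on the spike-in scale, with a median of 1.59, beside the 66.7% of all genes. Irf8 rose by 2.62 log2 units (SE 0.58, limma adjusted p = 0.000121) and Pou2af1, the cofactor of Oct proteins at octamer sites, by 2.35 (SE 0.58, limma adjusted p = 0.000529). On the relative scale the median of these regulators was 0.06 log2 units and 0 passed. There 3 were higher and 3 lower at an unadjusted p under 0.05, beside 35.1% of all genes in either direction. Irf8 (1.09, SE 0.23) and Pou2af1 (0.82, SE 0.24) were among the higher, and Tcf7 (-1.26, SE 0.23) and Bach2 (-0.47, SE 0.18) among the lower. Of 19 tested surface and receptor genes of pro-B and pre-B cells 9 rose and 1 fell, beside 66.7% and 0.746% of all genes. The share that rose lay below that background, and their median was 1.09 log2 units, against 1.54 over all genes. The fall was that of Enpep, an aminopeptidase of pre-B cells that other tissues carry as well. Enpep had 27.1, 45.6 and 66.8 normalized counts in the Che-1 silencing libraries and 83.1, 340.3 and 427 in the control libraries (-2.37, SE 0.55, limma adjusted p = 0.000212). This SE pools the spread across genes. With each gene's own spread in limma only 4 of all genes passed as lower on that scale, and the value of Enpep there is not given here. Il7r, the receptor for the growth factor of pro-B cells, which T cells also carry, had 734, 1630.2 and 1805 normalized counts in the Che-1 silencing libraries and 1279, 929 and 1035 in the control libraries (0.27, SE 0.57, limma adjusted p = 0.675).

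Across the remaining lists, 4 of 5 tested B lineage genes, 7 of 9 mature B cell markers and 7 of 10 plasma cell markers rose on the spike-in scale, near or somewhat above the 66.7% of all genes. Below that share were 6 of 13 T cell markers and 3 of 11 stem and progenitor markers that rose, while 0 of 12 neutrophil and 0 of 8 erythroid markers rose or fell. On the relative scale 0 genes of any list passed with limma. At an unadjusted p under 0.05, 25 of the 140 distinct tested genes of all lists were higher and 34 lower there, beside 35.1% of all genes in either direction. On that scale 9 of 10 germinal centre markers were higher at this unadjusted p. Of the pro-B and pre-B surface genes 6 of 19 were lower and 0 higher, and of the erythroid markers 7 of 8 were lower and 0 higher. The surface genes lay near the 35.1% of all genes, which counts both directions. The share of all genes that were lower alone is not given here. On the spike-in scale 0 neutrophil and 0 erythroid markers had an unadjusted p under 0.05. Of the 9 tested mature B cell markers 7 had a positive relative difference, with a median of 0.29 log2 units. Among those named by the rule, Cd83 and Cd40 were at 1.02 (SE 0.34, limma adjusted p = 0.1) and 0.83 (SE 0.3, limma adjusted p = 0.115). Fcer2a and Ccr7 were at -1.63 (SE 0.29, limma adjusted p = 0.0724) and -2.14 (SE 0.63, limma adjusted p = 0.0877), and were the only tested markers of this list with a negative value.

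The genes whose relative level over the 6 libraries was most like that of each member, by Pearson's r, were taken from genes with a mean of at least 50 normalized counts. They were Pias3, Furin and Bnc2 for Rag1 (r from 0.998 to 0.999), Eltd1, Ece1 and Ces2e for Dntt (0.998 to 0.999), and Aacs, Drd5 and Gja5 for Vpreb3 (0.999 to 1). For Lef1 they were Adam11, Cbx7 and Tmppe (0.996 to 1), for Ebf1 Exosc2, Rhbdd3 and Gpr52 (0.996) and for Sox4 Ctdsp2, Klhl21 and Gprc5c (0.996 to 0.999). With 6 libraries that fall into clusters and 11953 or 11954 genes compared, values this high are a description only. Among the 15 pairs of members r ran from -0.82 to 0.98. It was from 0.74 to 0.98 in the pairs among Rag1, Dntt, Lef1 and Sox4 and 0.87 for Vpreb3 and Ebf1, and negative in every pair across these sets.

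In the authors' deposited table, which tests the same group means, none of the 6 members passed, with adjusted p-values from 0.186 for Vpreb3 to 0.89 for Dntt, beside 0.0773% of 16825 genes that did. Reads of some members cannot be separated from those of overlapping genes, since the library kit marks strand but whether the counting used it is not stated. In GENCODE vM21, Lef1 shares 1208 exon bases with the antisense gene Gm43352, and Sox4 shares 2616 with Gm26735 on the opposite strand. Rag1 shares 80 exon bases on its own strand with B230118H07Rik.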

How the data were processed

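Bone marrow RNA of 6 libraries was depleted of ribosomal RNA and made into stranded total RNA libraries, per the labels' protocols. TopHat, Cufflinks, Cuffdiff, HTSeq and mm9 are named, per the submitters' processing notes; the sources used here give no versions. The authors deposited raw counts for each ERCC spike-in RNA in every library, plus HTSeq summary rows (0.0434% to 0.221% of reads). They also deposited a gene table of group means of normalized counts (unit: signal), their fold ratio, its log2 value and a p-value with its adjusted form, per the file headers.

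Counts per library were solved from the group means and the spike-in size factors (median of ratios over all rows without a 0, summary rows included). Every mean above 0 and below 50 (3330 Che-1 silencing, 4739 control) had exactly 1 solution in whole counts, against 0 with factors from spike-ins alone. Of 500 simulated means per group, 500 came back correct for Che-1 silencing and 499 for control. In all 17077 genes (99.4%) were recovered, and the 96 others, with means of 10713.5 or more, stayed out of the fits and of the gene reads behind each share and RPM. Depth limits Rag1 and Dntt most. The design assumed values per library, so limma on log2(normalized count + 1) was used with group as the term and a trended prior, at a minimum mean of 10. Its prior degrees of freedom were infinite on the spike-in scale, so those SEs pool the spread across genes, and 2.42 and 2.45 on the relative and B lineage scales. The limma fit was also run on simulated counts, scaled by the same library sizes that made them. Those counts held no shift of whole libraries after scaling and no clusters of replicates, so they do not test the spike-in calls. edgeR 4.0.16 and DESeq2 1.42.0 on the recovered counts, other pseudocounts and minimum means, each library left out, a replicate block and other scalings were alternatives. limma was version 3.58.1 in R 4.3.3. Named were the 6 measured members, in other lists genes among the 4 lowest relative p-values, and the 3 genes most like each member. Il7r, Ptcra, Lck, Zap70, Cd3g, Cd4 and the genes that passed on the relative scale were added after their values were seen, as was the octamer motif. The members and lists were chosen with earlier results of these data known.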

Additional observations from a re-analysis of the deposited data

How the results depend on the processing

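Of 276 values of single members under alternatives, 244 kept their direction and side of the threshold, 25 newly passed, 7 no longer passed and 0 changed sign. On the spike-in scale 2 members and 9856 genes passed. Leaving out a library in turn gave 1 to 3 members and 3276 to 11247 genes. The genes numbered 5673 and 6082 when Che-1 silencing replicate 1 or 2 was left out, 3276 for control replicate 2 and 3608 for control replicate 3. With each gene's own spread 0 members and 4 genes passed, and with control replicates 2 and 3 summed 1 member and 3507 genes did. On the relative scale 0 members and 4 genes passed, and leaving out a library gave 0 to 5 members and 4 to 7713 genes, the highest without Che-1 silencing replicate 3, and 98 without control replicate 1. With no minimum mean 1 member and 23 genes passed, with each gene's own spread 1 and 24, and with DESeq2 4 and 3967. On the B lineage scale 0 members and 5 genes passed, and leaving out a library gave 0 to 5 members and 4 to 6164 genes, again the highest without Che-1 silencing replicate 3, and 44 without control replicate 1. Each gene's own spread gave 86 genes, and DESeq2 gave 3 members and 2957 genes. The causes were not tested. Same-numbered libraries deviated from their group means with correlations of 0.17, -0.15 and 0.18 for numbers 1, 2 and 3, so the numbers were not taken to pair libraries. With the replicate block 2 members and 6804 genes passed on the spike-in scale, and 0 members and 5 genes on each of the other scales. Che-1 silencing replicate 2 correlated best with control replicate 1 and not with its own number. Rag1 and Dntt rest on 50 reads or fewer per library, which limits their precision.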
